A study of Mus musculus with 8 samples.

Results

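The results concern 8 mouse microRNA (miRNA) genes that are known from blood, vessels, mesenchyme and the supporting cells of the gonad, and that were read as a measure of non-germ cells in small RNA libraries of sorted germ cells. The members were chosen by name for the cells they are known from: Mir451a and Mir144 for red blood cells, Mir126a for endothelium, Mir143, Mir145a, Mir199a-1 and Mir214 for smooth muscle and mesenchyme, and Mir202 for the gonad. They are 8 of the 605 miRNA genes that had any read. Reads of 20 to 24 nucleotides (nt) that were found letter for letter, on the sense strand, in the annotated transcript of a member were counted for it.

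The libraries held small RNA from male mouse primordial germ cells (mPGC) of E12.5, of E13.5 and of E15.5, counted in days of embryonic development, and from SGET D6 mPGCLC, germ cell-like cells that were made in culture from embryonic stem cells by way of an epiblast-like stage and sorted on day 6 as Stella-GFP positive and Esg1-tdTomato negative. Each of the 4 groups had 2 libraries, 8 in all. The mPGC carried GOF18, a Pou5f1 reporter that drives GFP, and the labels give their strain as C57BL/6J and their sort as SSEA1 and CD61, whereas the methods of the study describe a mixed FVB and C57BL/6J background and a sort on EGFP. The SGET cells were of B6CBA/129 origin, and no treatment or time apart from the differentiation protocol set them apart in the labels. According to the methods, each mPGC library came from the genital ridges of pooled embryos, cut free of the mesonephros, with separate litters for the replicates, and the SGET line is a single reporter line grown as embryoid bodies, which contain no gonad. The miRNA-rich fraction of a bulk sample does not say whether fewer cells of a type or less RNA per cell lies behind a low level.

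A miRNA is cut from a hairpin transcript, and 1 or both arms of the hairpin give a mature strand of about 22 nt that guides Argonaute proteins to target mRNAs. Bases 2 to 8 of that strand, the seed, do most of the pairing. miR-451a, which Argonaute 2 itself cuts without Dicer, and its neighbour miR-144 are highly expressed in red blood cells. miR-126 is expressed in endothelium from within Egfl7, miR-143 and miR-145 in smooth muscle, and miR-199a and miR-214 in mesenchyme, where a shared transcript antisense to Dnm3 carries both. miR-202 has been described in Sertoli cells, the supporting cells of the fetal testis, and also in germ cells of the later testis.

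The mature strands of the members whose levels the results turn on are shown here so that their seeds can be compared. They were taken from RefSeq (GRCm38.p6), 5′ to 3′, with the seed in capitals. The table used here gave 10 mature strands for 6 of the 8 members, and of miR-144 and miR-214 only the strand with all or nearly all of the reads is shown.
miR-451a: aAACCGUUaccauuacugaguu
miR-144-3p: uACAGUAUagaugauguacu
miR-126a-3p: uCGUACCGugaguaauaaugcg
miR-199a-5p: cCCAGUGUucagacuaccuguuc
miR-199a-3p: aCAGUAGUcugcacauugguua
miR-214-3p: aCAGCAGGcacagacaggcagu
miR-202-5p: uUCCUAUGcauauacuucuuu
miR-202-3p: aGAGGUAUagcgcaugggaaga
No 2 of these strands shared a seed. The seed of miR-202-3p, GAGGUAU, had its first 6 letters in common with GAGGUAG, the seed of let-7a-5p, and was also that of let-7j in the same table. The seed of miR-199a-3p was shared with miR-199b-3p and that of miR-214-3p with miR-761.

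The libraries held 7447873 to 26552524 mapping reads. Of these, 12.8% to 24.8% matched a miRNA gene in the E12.5, E13.5 and SGET libraries, against 2.22% and 1.89% in the E15.5 libraries. Because the summed share of miRNAs was this much lower at E15.5, members are given on both scales, as reads per 1000000 mapping reads (RPM of all reads) and as reads per 1000000 miRNA-matching reads (RPM of miRNA reads). The median over the 422 miRNA genes that passed the low-count filter was -3.36 on the log2 scale for E15.5 minus E13.5 per mapping read, and -0.12 over 437 genes when libraries were scaled to their miRNA-matching reads. The 11 listed germ cell and pluripotency miRNA genes of the Mir290 to Mir295 and Mir302 clusters made up 12.9% to 36.8% of miRNA-matching reads in the 8 libraries. They are called the germ cell list below.

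The 8 members together were a small part of the miRNA pool. In E12.5 mPGC they took 0.304% and 0.228% of miRNA-matching reads (mean 0.266% ± 0.0541, SD, n = 2). In E13.5 mPGC the shares were 0.320% and 0.625%, in E15.5 mPGC 0.655% and 1.48%, and in SGET D6 mPGCLC 0.587% and 0.678%. The SGET libraries held a larger share than both E12.5 libraries and lay between the lowest and the highest of the other mPGC libraries. The make-up of the sum differed, as Mir202 made 38.2% and 37.1% of it in E12.5 and 0 in both SGET libraries. On the other scale the sums were 390 and 469 RPM of all reads in E12.5, through 466 and 1329 in E13.5, to 145 and 280 in E15.5 mPGC, with 940 and 1684 in SGET cells. Of the 64 values of the 8 members in the 8 libraries, 18 were 0.

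**Figure D1:**
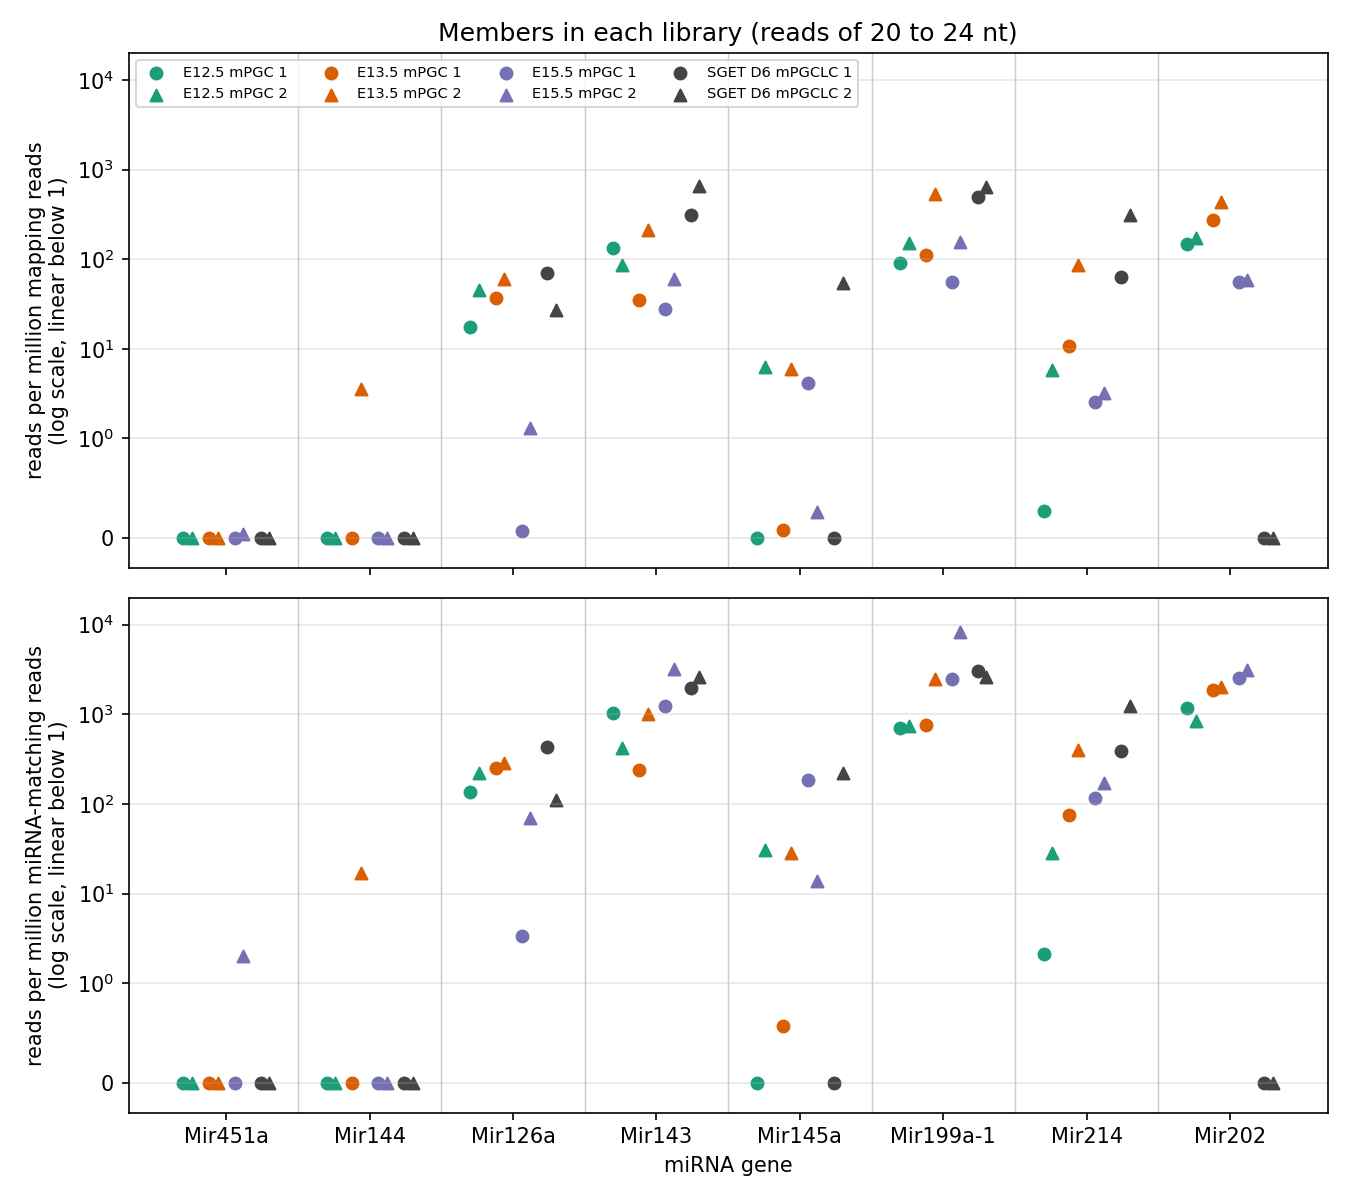
Level of each member in each library, in RPM of all reads (top) and RPM of miRNA reads (bottom), on a log axis that is linear below 1; colours are groups, circles replicate 1 and triangles replicate 2. Mir202 lies at 0 in both SGET libraries and above 50 RPM of all reads in every mPGC library, whereas Mir451a and Mir144 lie at 0 in 7 of the 8 libraries each.

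The red blood cell miRNAs were at or near 0. Mir451a had 0 reads in 7 libraries and 1 read in E15.5 replicate 2, where 1 read is worth 1.99 RPM of miRNA reads (95% Wilson interval 0.352 to 11.3). Over the whole range of read lengths, 4 of the 112730634 mapping reads lay in Mir451a, of which 3 were of 25 to 30 nt. A count of 0 allows up to 3 reads, which is 3.14 RPM of miRNA reads in E12.5 replicate 1 and 0.715 in E13.5 replicate 2. Such limits and intervals cover counting error only.

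Mir144, which is transcribed together with Mir451a, was also at 0 in 7 libraries. E13.5 replicate 2 held 71 reads of it, 16.9 RPM of miRNA reads, and all 71 were copies of the one mature sequence printed above. The other E13.5 library had 0, so the value rests on 1 library and on 1 distinct sequence. Neither gene passed the low-count filter, and neither was tested.

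Other miRNAs of blood were not all at 0. The list of 7 blood genes summed to 0.0155% and 0.0200% of miRNA-matching reads in E12.5, through 0 and 0.0201% in E13.5, to 0.0520% and 0.108% in E15.5 mPGC, with 0.00740% and 0 in SGET cells. Mir486, found in red cells and muscle, had the highest mean level of the list, with 992 RPM of miRNA reads in E15.5 replicate 2 and 0 to 88.4 in the other libraries. Mir3107, listed as Mir486b, had 22 reads in E15.5 replicate 2 beside 498 of Mir486. In the other libraries their counts were nearly equal, as in E13.5 replicate 2 with 304 and 306. The high value thus rests on 1 library, mostly on reads not found in Mir3107. Mir223, of myeloid cells, reached 375 RPM of miRNA reads in E15.5 replicate 1 but 3.99 in replicate 2. Mir142, of white blood cells in general, was at 27.9 to 106 RPM of miRNA reads in 5 of the 6 mPGC libraries and at 0 in E13.5 replicate 1 and both SGET libraries. None of the 5 blood genes tested passed the edgeR test in any of the 4 comparisons.

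Mir126a, the endothelial member, was read in the libraries of every group and had its lowest levels at E15.5. The counts were 130 and 623 in E12.5, through 441 and 1187 in E13.5, to 1 and 35 in E15.5 mPGC, with 709 and 260 in SGET cells. As RPM of miRNA reads these were 136 and 222 in E12.5, through 251 and 283 in E13.5, to 3.32 and 69.7 in E15.5 mPGC, with 434 and 110 in SGET cells. Both E15.5 libraries lay below all 6 others on both scales. As a share of miRNA-matching reads, 17.3% of all 422 genes had both E15.5 libraries below both of E13.5. On that scale the SGET libraries spanned all 4 libraries of the earlier days for Mir126a. The E15.5 minus E13.5 difference did not pass the test (log2 fold change per mapping read -6.09, SE 2.79, edgeR adjusted p = 0.148), and scaled to miRNA-matching reads it was -2.86 (SE 2.66, edgeR adjusted p = 0.864). In SGET replicate 1 all 709 reads were copies of 1 sequence, and over the libraries 1 to 7 distinct sequences made up the gene's reads. The 3p arm gave 88.2% of all Mir126a reads, and 5p reads were seen in only 3 libraries, E12.5 replicate 2 (41.3%), E13.5 replicate 2 (11.7%) and E15.5 replicate 2 (8.57%).

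Mir199a-1 was the most abundant member by total, with 30565 reads, all of which also lie in Mir199a-2 or Mir199b, so that the value belongs to the miR-199 family and not to 1 locus. The counts were 671 and 2060 in E12.5, through 1334 and 10475 in E13.5, to 750 and 4147 in E15.5 mPGC, with 5019 and 6109 in SGET cells. As RPM of miRNA reads the levels were 703 and 734 in E12.5, through 760 and 2497 in E13.5, to 2486 and 8263 in E15.5 mPGC, with 3071 and 2583 in SGET cells. On that scale the E12.5 libraries were the lowest, and both SGET libraries exceeded all 4 libraries of E12.5 and E13.5. Neither order held per mapping read, where E15.5 replicate 1 was the lowest at 55.1 RPM of all reads, beside 90.1 and 151 in E12.5, and SGET replicate 1 (492) lay below E13.5 replicate 2 (531). As a share of miRNA-matching reads, 31.3% of all 422 genes had both SGET libraries above both of E12.5, and 32.2% above both of E13.5. Within E13.5 the Mir199a-1 replicates differed 4.79-fold per mapping read, more than the SGET replicates (1.30-fold). The SGET minus E12.5 difference was 2.23 (SE 0.999) on the log2 scale per mapping read and did not pass over all genes (edgeR adjusted p = 0.304), but did when only those groups were fitted (2.23, edgeR adjusted p = 0.0437). SGET minus E13.5 was 0.82 (SE 0.96, edgeR adjusted p = 0.605). In the main fit 2.61% of all 422 genes were higher in SGET cells than at E12.5, and the fit of only those groups called more genes higher.

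Mir214, which is carried with Mir199a-2 by Dnm3os, had its highest level in SGET replicate 2 on both scales and, as a share of miRNA-matching reads, its lowest levels at E12.5. Its counts were 2 and 79 in E12.5, through 131 and 1687 in E13.5, to 35 and 86 in E15.5 mPGC, with 644 and 2931 in SGET cells. The matching levels were 2.10 and 28.2 RPM of miRNA reads in E12.5, through 74.6 and 402 in E13.5, to 116 and 171 in E15.5 mPGC, with 394 and 1239 in SGET cells. As RPM of all reads they were 0.269 and 5.80 in E12.5, 10.9 and 85.5 in E13.5, 2.57 and 3.24 in E15.5, and 63.1 and 308 in SGET libraries, so that the E12.5 and E15.5 libraries overlapped. Both SGET libraries lay above both E12.5 libraries on either scale, and SGET replicate 1 lay below E13.5 replicate 2. As a share of miRNA-matching reads, 31.3% of all 422 genes lay above E12.5 in this way. The log2 fold change of SGET minus E12.5 was 5.92 per mapping read (SE 2.25, edgeR adjusted p = 0.209), which passed in DESeq2 (5.51, adjusted p = 5.4e-04) and when either E15.5 library was left out (adjusted p = 0.0297 without replicate 1 and 0.0283 without replicate 2). In that comparison DESeq2 called 34 of the 605 genes with reads higher, and the main edgeR fit 2.61% of 422. Numbers called with 1 library left out are given in the last section. Across the 8 libraries the correlation of Mir214 with Mir199a-1 was r = 0.66, a description over libraries that differ in depth.

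Mir143 was present in every library, unlike its neighbour Mir145a. Mir143 was counted 991 and 1168 times in E12.5, through 423 and 4210 in E13.5, to 375 and 1610 in E15.5 mPGC, with 3220 and 6225 in SGET cells. As RPM of miRNA reads that made 1038 and 416 in E12.5, through 241 and 1004 in E13.5, to 1243 and 3208 in E15.5 mPGC, with 1970 and 2632 in SGET cells. The E15.5 and SGET libraries overlapped each other, and all 4 lay above the E12.5 and E13.5 libraries, which overlapped. As a share of miRNA-matching reads, 31.3% of all 422 genes had both SGET libraries above both of E12.5, and 32.2% above both of E13.5. For E15.5 above E13.5 it was 10.9%. Per mapping read Mir143 in the SGET libraries, at 315 and 653 RPM of all reads, lay above all 6 mPGC libraries, which had 27.6 to 213. SGET minus E12.5 was 2.15 per mapping read on the log2 scale (SE 1.11, edgeR adjusted p = 0.351) and SGET minus E13.5 was 1.96 (SE 1.10, edgeR adjusted p = 0.303). All 18222 reads came from the 3p arm.

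Mir145a was rare and uneven, with 0 and 85 reads in E12.5, through 1 and 118 in E13.5, to 56 and 7 in E15.5 mPGC, with 0 and 522 in SGET cells. The 522 reads of SGET replicate 2 were copies of 1 sequence, and the other SGET library had none. Which arm the reads came from changed from library to library, from 100% on the 3p arm for the 522 reads of SGET replicate 2, through 98.8% in E12.5 replicate 2, to 1.79% in E15.5 replicate 1. The correlation of Mir145a with Mir143 over the 8 libraries was r = 0.28. In the GRCm38 annotation Mir143 lies at chr18:61649196-61649258 and Mir145a at chr18:61647825-61647894, both on the minus strand.

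Mir202 was read in every mPGC library and in neither SGET library. The E12.5 libraries held 1110 and 2370 reads of it, the E13.5 libraries 3280 and 8483, and the E15.5 libraries 758 and 1547, and both SGET libraries had 0. As RPM of all reads the levels were 149 and 174 in E12.5, 272 and 430 in E13.5, and 55.7 and 58.3 in E15.5 mPGC. Its replicates differed 1.05-fold to 1.58-fold on that scale, widest at E13.5, where the replicates of Mir126a differed 1.64-fold and those of Mir143, Mir199a-1 and Mir214 4.79-fold to 7.86-fold. In other groups some members were as close, as Mir214 at E15.5 (1.26-fold) and Mir199a-1 in SGET cells (1.30-fold). Against a floor of 3 reads per library, the mean of Mir202 was 531-fold higher in E12.5 mPGC, 1153-fold in E13.5 mPGC and 187-fold in E15.5 mPGC than the floor of SGET cells per mapping read. As a share of miRNA-matching reads these bounds were 647-fold, 1253-fold and 1803-fold. They cover counting error only, not the spread between libraries. For Mir145a, 0 reads in 1 SGET library stood beside 522 in the other.

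Mir202 was lower in SGET cells than in E12.5 mPGC (edgeR adjusted p = 8.4e-04) and than in E13.5 mPGC (edgeR adjusted p = 3.4e-04). Of all 422 genes tested, 3.32% were lower in the comparison with E12.5 and 3.79% in that with E13.5. Mir202 passed the low-count filter through the mPGC libraries alone, and with 0 reads in SGET cells it could only come out lower there. The counts above, not these p-values, describe the comparison, and they rest on 2 libraries a group. The fitted folds, which are set by zeros, are not given. Both comparisons share the SGET libraries.

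Among the mPGC libraries Mir202 took a larger share of the miRNA pool at each later day. It had 1163 and 845 RPM of miRNA reads in E12.5, 1868 and 2022 in E13.5, and 2513 and 3082 in E15.5 mPGC, so that no library of a later day overlapped an earlier day. Of all 422 genes, 19.2% lay above without overlap in the first step and 10.9% in the second. The share that did so in both steps was not counted. Neither step of Mir202 passed the edgeR test. E13.5 minus E12.5 was 0.95 (SE 0.92, edgeR adjusted p = 0.998) on the log2 scale relative to miRNA-matching reads, and E15.5 minus E13.5 was 0.52 (SE 0.91, edgeR adjusted p = 0.897). Per mapping read the second step had the opposite sign, -2.62 (SE 1.10, edgeR adjusted p = 0.115), and it stood 0.74 above the median of all genes tested.

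The 3p arm gave 72.1% to 97.7% of Mir202 reads per library, lowest in E12.5 replicate 1 and highest in E15.5 replicate 2. In both arms most reads began at the first base of the RefSeq strand, 92.0% of 14898 reads for miR-202-3p and 96.0% of 2650 for miR-202-5p. Over the 8 libraries, the miRNA genes whose log2 level was most like that of Mir202 were Mir878 (r = 0.992), Mir743b (r = 0.989) and Mir881 (r = 0.979). The 8 points of these correlations share the split between mPGC and SGET libraries, where the same genes had 0 or nearly 0 reads.

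Mir140, the other gene of the 2-gene list for gonadal support cells and also a gene of cartilage, did not follow Mir202. It was present in SGET cells at 1345 and 833 RPM of miRNA reads, beside 1872 and 2031 in E12.5, 1293 and 2381 in E13.5, and 2314 and 2582 in E15.5 mPGC. Among mPGC, Mir140 fell by 2.79 per mapping read on the log2 scale from E13.5 to E15.5 (SE 0.96, edgeR adjusted p = 0.0452), beside a median of -3.36 over all genes. Scaled to miRNA-matching reads the call was lost and the sign turned (0.41, edgeR adjusted p = 0.897).

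**Figure D2:**
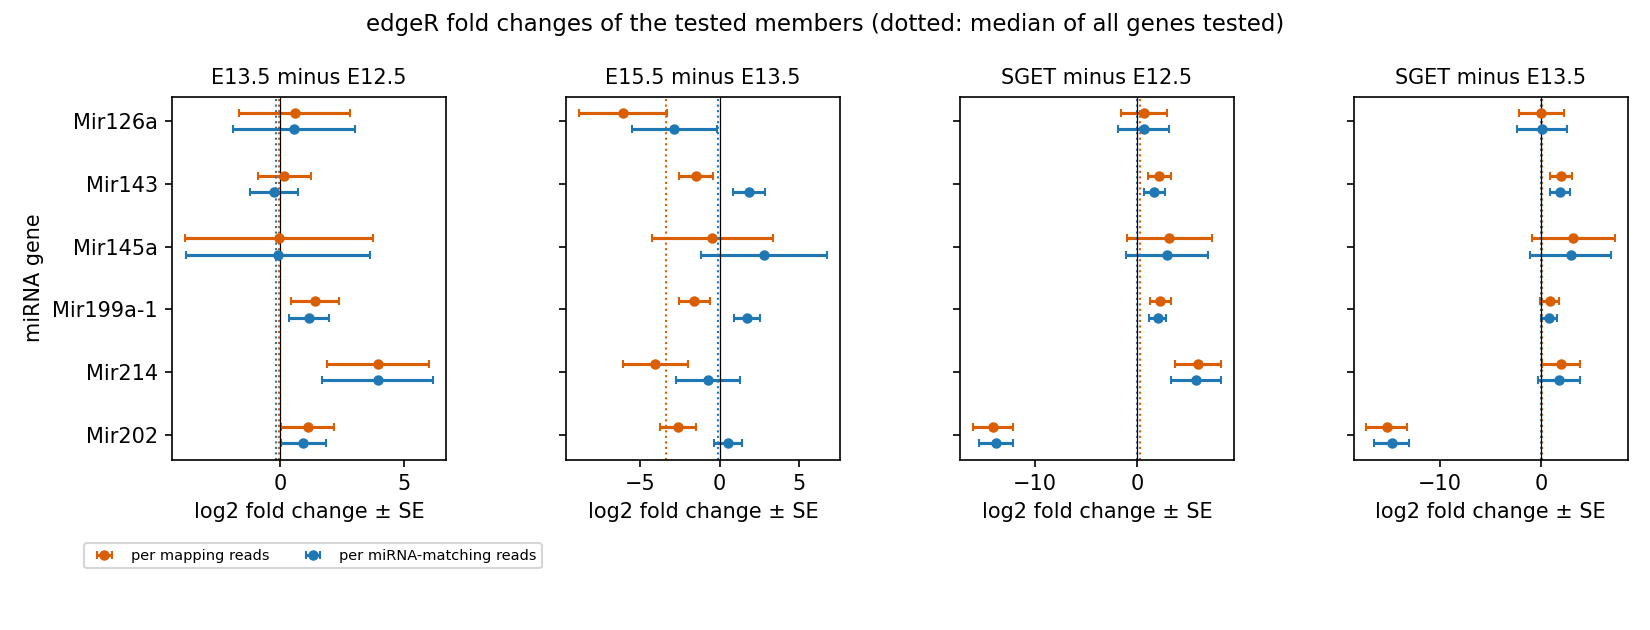
Log2 fold changes with standard errors of the 6 tested members in each of the 4 comparisons, scaled to all mapping reads (orange) or to miRNA-matching reads (blue); dotted lines mark the median of all genes tested. The Mir202 values in the SGET comparisons lie far below 0 and are set by counts of 0, whereas the other members passed no test.

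The calls among the members stand here beside those of all genes tested. For E13.5 minus E12.5, 0 of the 6 tested members and 0.0% of the 422 genes were higher, and likewise 0.0% were lower by edgeR. At an unadjusted p under 0.05, 7 genes were higher and 0 lower, none of them a member, and DESeq2 called 6 higher and 1 lower, again with no member. For E15.5 minus E13.5, 0 members and 25.4% of all genes were lower, and 0.0% were higher. There, 2 of the 6 members and 134 of the 422 genes had an unadjusted p under 0.05, and DESeq2 called 0 members, and 8 genes higher and 5 lower in all. For SGET minus E12.5, 0 of 6 members were higher against 2.61% of all genes, and 1, Mir202, was lower against 3.32%. In that comparison 3 of the 6 members and 64 of the 422 genes had an unadjusted p under 0.05. DESeq2 called Mir214 higher and Mir202 lower there, and 34 genes higher and 65 lower in all. For SGET minus E13.5, 0 of 6 members were higher against 2.37%, and 1, again Mir202, was lower against 3.79%. There, 1 of the 6 members and 69 of the 422 genes had an unadjusted p under 0.05. DESeq2 called only Mir202 among the members, as lower, and 29 genes higher and 80 lower in all. Mir202 entered the test through the mPGC libraries, so its calls are not read against these shares. Median log2 fold changes of the 6 members and of all genes were 0.87 and -0.02 in the step from E12.5 to E13.5, -2.11 and -3.36 in the step from E13.5 to E15.5, 2.19 and 0.20 in SGET cells against E12.5, and 1.38 and 0.10 against E13.5.

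The order of the libraries was also compared without a model, as members with both libraries of 1 group above both of the other in their share of miRNA-matching reads. From E12.5 to E13.5, 4 of 6 members (Mir126a, Mir199a-1, Mir202 and Mir214) were above and 0 below, against 19.2% and 21.3% of all 422 genes. From E13.5 to E15.5, 2 members (Mir143 and Mir202) were above and 1 (Mir126a) below, against 10.9% and 17.3%. In SGET cells 3 members (Mir143, Mir199a-1 and Mir214) were above E12.5 and 1 (Mir202) below, against 31.3% and 30.1%. Against E13.5 the SGET libraries had 2 members above (Mir143 and Mir199a-1) and 1 below (Mir202), against 32.2% and 26.8% of all genes. Mir202 passed the low-count filter through the mPGC libraries alone. With 0 reads in SGET cells its place below was fixed, so it is not read against these shares. The counts of members above in SGET cells are near the backgrounds, and with 6 members no count is read further.

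**Figure D3:**
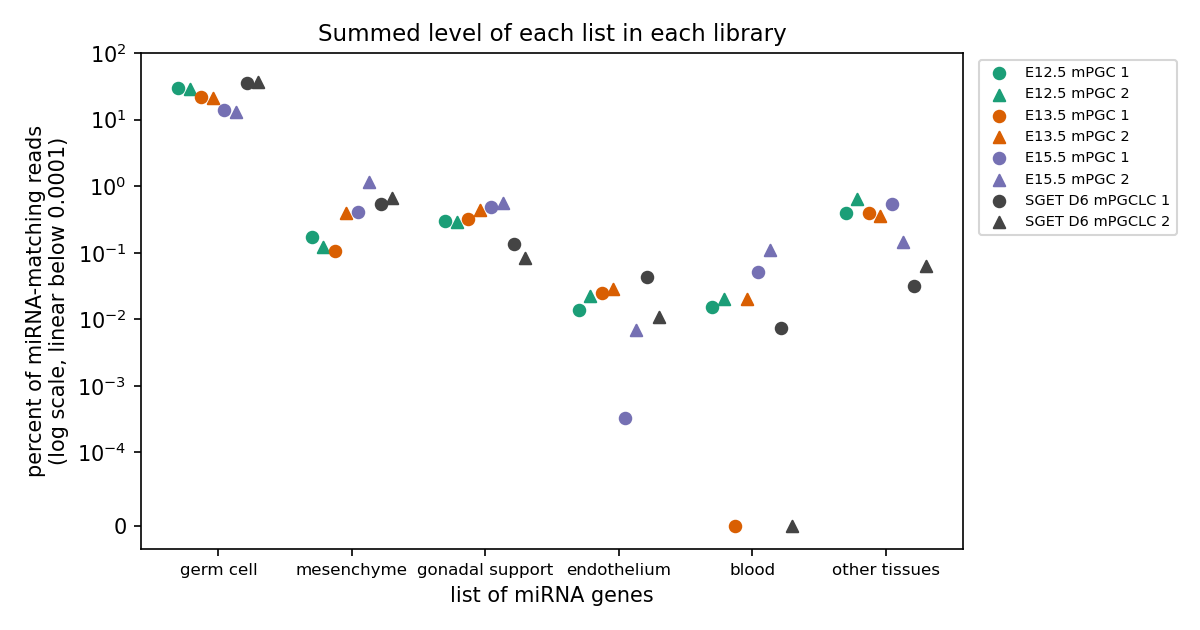
Summed share of miRNA-matching reads of each list of miRNA genes in each library, in percent on a log axis that is linear below 0.0001; colours are groups, circles replicate 1 and triangles replicate 2. The germ cell list lies between 12.9% and 36.8%, and the mesenchyme list between 0.108% and 1.17%.

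The lists by cell type put the members beside other genes. The 6 mesenchymal genes, which include 4 members and share reads within the miR-199 family, summed to 0.174% and 0.121% of miRNA-matching reads in E12.5, through 0.108% and 0.394% in E13.5, to 0.403% and 1.17% in E15.5 mPGC, with 0.543% and 0.668% in SGET cells. None of the 6 passed in any comparison. The gonadal support list summed to 0.288% to 0.566% in mPGC and to 0.135% and 0.0833% in SGET cells, where it consisted of Mir140. A list of 6 miRNAs of brain, muscle, liver and heart summed to 0.144% to 0.649% in mPGC and 0.0321% and 0.0636% in SGET cells. Most of that was Mir9-1 of neural tissue, while Mir133a-1 and Mir208a of muscle and heart were at 0 in every library. In E12.5 mPGC Mir9-1 had 3778 and 6387 RPM of miRNA reads, above the sum of all members, 3042 and 2277. In E13.5 replicate 1 Mir9-1 was also above that sum, with 3925 beside 3195. It was below the sum in E13.5 replicate 2 (3457 beside 6253), in both E15.5 libraries and in both SGET libraries. The source of the Mir9-1 reads was not tested. From E13.5 to E15.5, Mir9-1 fell by 3.42 per mapping read on the log2 scale (SE 1.02, edgeR adjusted p = 0.0228), close to the median of all genes, and scaled to miRNA-matching reads the difference was -0.36 (edgeR adjusted p = 0.897). On that second scale Mir9-1 was lower in SGET cells than in E12.5 mPGC (-3.57, edgeR adjusted p = 0.0044) and than in E13.5 mPGC (-3.11, edgeR adjusted p = 0.0104), which it was not per mapping read. The germ cell list had 9 genes tested, of which 6 were lower at E15.5 than at E13.5 per mapping read, where 25.4% of all genes were, and 0 of 11 were lower when scaled to miRNA-matching reads. Per mapping read 1 gene of this list, Mir302b, was higher in SGET cells than in E12.5 and than in E13.5 mPGC. Of all 422 genes, 2.61% and 2.37% were higher in those comparisons. Scaled to miRNA-matching reads Mir302b was again higher in both, and Mir292 was also higher against E13.5 (0.85, edgeR adjusted p = 0.0060). On that scale 13 and 14 of the 437 genes were higher. What part non-germ cells had in any member's level was not tested.

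Most reads of miR-214-3p did not begin at the first base of the RefSeq strand. Of 5510 reads, 50.1% began 1 nt before the RefSeq start and 38.8% began at it, with nearly all of the rest beginning 2 nt before it. In E13.5 replicate 1, 98.5% of its 131 reads began 1 nt early, but 128 of the 131 were copies of 1 sequence. In SGET replicate 2 40.1% began 1 nt early, beside 45.9% at the RefSeq start. A read that begins 1 nt early carries another seed than the one printed for miR-214-3p. For miR-199a-3p 74.5% of reads began at the RefSeq start and 16.9% 1 nt before it, yet in E15.5 replicate 2 the earlier start was the more frequent, 57.7% against 40.3%. There, 2357 of the 2368 reads with the earlier start were copies of 1 sequence. For miR-126a-3p 77.6% began at the RefSeq start and 20.6% 1 nt after it.

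**Figure D4:**
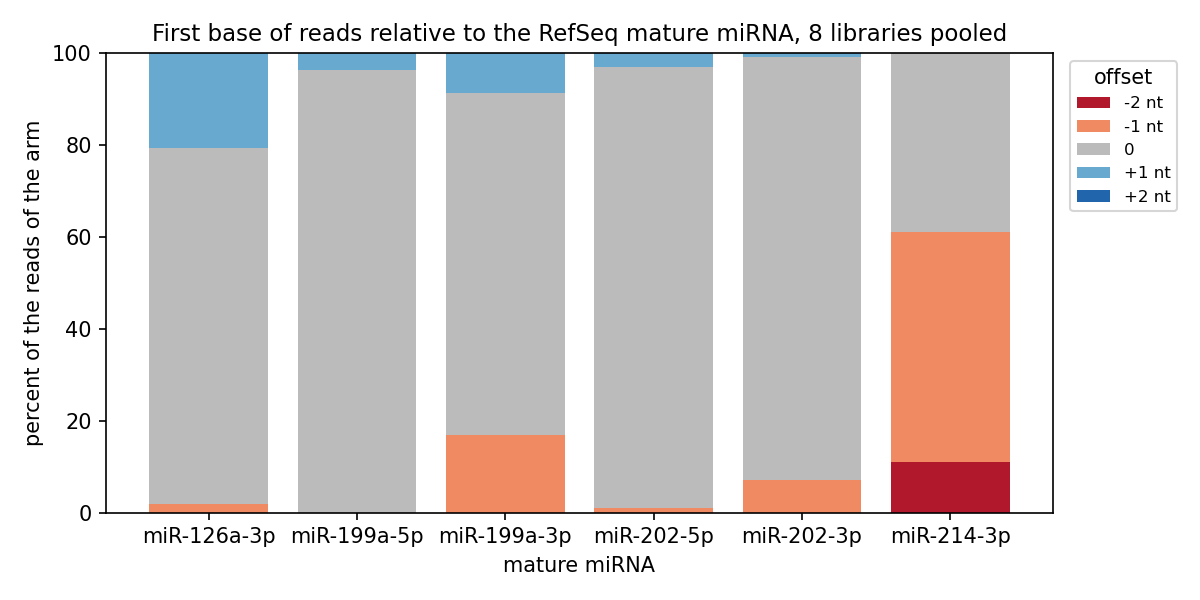
First base of the reads of each mature strand relative to its RefSeq start, as percent of the reads of that arm over the 8 libraries pooled; colours give the offset in nt, negative before the RefSeq start. Most of the miR-214-3p bar lies before the RefSeq start, whereas the miR-202 and miR-199a-5p bars lie almost wholly at it.

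The other members have the following places in the GRCm38 annotation. Mir451a (chr11:78073170-78073241) and Mir144 (chr11:78073005-78073070) are neighbours on the plus strand, and Mir451a lies opposite Mir451b. Mir126a (chr2:26591357-26591429, plus strand) lies inside the protein-coding gene Egfl7 on the same strand, over an interval that at least 1 transcript counts as exon. Mir199a-1 (chr9:21496495-21496564, minus strand) lies in an intron of Dnm2 on the opposite strand. Mir214 (chr1:162223368-162223477, plus strand) lies in an exon of the antisense gene Dnm3os and opposite an intron of Dnm3. Mir202 (chr7:139957689-139957760, minus strand) lies in an exon of the long noncoding RNA Gm2044.

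The genes most like each of the other tested members, by Pearson's r of log2 levels over the 8 libraries, were not further members in most cases. Mir126a was followed by Mir1306 (r = 0.951), Mir467c (r = 0.924) and Mir467d (r = 0.861). For Mir143 they were Mir434 (r = 0.884), Mir382 (r = 0.881) and Mir466b-3 (r = 0.858), and for Mir214 Mir134 (r = 0.868), Mir410 (r = 0.867) and Mir379 (r = 0.835). Mir145a was followed by Mir10a (r = 0.948), Mir6399 (r = 0.902) and Mir203 (r = 0.814). Mir199a-1 alone had a member among its 3, Mir143 (r = 0.827), between Mir483 (r = 0.900) and Mir130b (r = 0.813). The 8 libraries fall into 4 pairs, so these values describe order among few points.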

How the data were processed

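The authors trimmed adapters (cutadapt 3.2 per the submitters' notes), mapped reads end to end to GRCm38 (STAR 2.5.3a), and deposited counts per distinct sequence, 1 table per library, with random adapter bases not used to remove PCR copies. From these counts, sequences of 20 to 24 nt were matched exactly to GENCODE M21 miRNA transcripts, and a sequence in several genes counted for each. Library size was all mapping reads, 7447873 to 26552524. edgeR 4.0.16 (quasi-likelihood, default low-count filter, 1 fit of all 8 libraries by group, Benjamini-Hochberg over 422 genes, threshold 0.05) was the test, with R 4.3.3, Python 3.11.15 and DESeq2 1.42.0 as an alternative. It was checked on simulated counts. Intervals are 95% Wilson intervals. In the main fit, p-values rest on the spread between the 2 libraries of a group, estimated from all 4 groups together and not from the compared groups alone. For SGET cells the sources used here do not say whether the 2 libraries were separate cultures. The named genes are the 8 members, up to 4 genes a list by mean level, and the 3 genes most like each member by log2(reads per 1000000 miRNA-matching reads + 1). List genes that moved are named as exceptions, chosen after their values were seen. Members and lists were chosen with earlier results of these data known.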

Additional observations from a re-analysis of the deposited data

Results flagged for a closer look

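Reads outside 20 to 24 nt were not used for the members' levels, and 6 values there stood above the 3 reads that a count of 0 allows. Reads of 15 to 19 nt in E13.5 replicate 2 numbered 183 for Mir143, 57 for Mir202 and 6 for Mir214. Mir214 also had 25 such reads in E15.5 replicate 1 and 11 in E15.5 replicate 2. Mir145a had 42 reads of 25 to 30 nt in E15.5 replicate 1, beside 56 of 20 to 24 nt.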

How the results depend on the processing

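Mir202 had adjusted p of 2.4e-16 to 0.0226 against E12.5 and 7.8e-19 to 0.0389 against E13.5 over the 16 alternatives, each of which repeats the same 0 reads in SGET cells and adds no support. The counts of genes depended on the setting. Scaling to miRNA-matching reads gave 2 higher for E13.5 minus E12.5, 1 higher and 0 lower in E15.5 minus E13.5, and 30 and 34 lower in SGET cells than at E12.5 and E13.5. TMM gave 2, 1 and 0, then 7 higher and 40 lower against E12.5 and 49 lower against E13.5. DESeq2 gave 6 higher and 1 lower, 8 and 5, 34 and 65, and 29 and 80 in the 4 comparisons in order. Fitting only the groups compared gave 24 higher and 33 lower for SGET minus E12.5 and 6 lower for SGET minus E13.5, and reads of 1 miRNA gene alone gave 61 lower for E15.5 minus E13.5. A replicate block gave 7 higher for E13.5 minus E12.5, 18 higher and 22 lower for SGET minus E12.5 and 19 higher for SGET minus E13.5. The numbers gave no pairing, since deviations of same-numbered libraries correlated by 0.003 to 0.122 over genes. Leaving out 1 library gave 0 to 8 higher and 0 to 2 lower for E13.5 minus E12.5, 0 to 2 higher and 84 to 119 lower for E15.5 minus E13.5, 5 to 22 higher and 12 to 22 lower for SGET minus E12.5, and 3 to 20 higher and 16 to 25 lower for SGET minus E13.5. The lowest of these came without E12.5 replicate 1 (5 higher) and without E13.5 replicate 1 (3 higher), and the 8 and 22 came without either E15.5 library.

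Signs changed for members in comparisons where they passed no test. Over the fits that leave out 1 library, Mir126a ran from -0.21 to 1.47 (SGET minus E12.5) and from -0.83 to 0.52 (SGET minus E13.5), Mir143 from -1.64 to 0.96 (E13.5 minus E12.5) and from -2.27 to 0.33 (E15.5 minus E13.5), Mir145a from -5.09 to 8.43 and from -3.48 to 4.57 in the same comparisons, and up to 11.60 and 8.21 for SGET minus E12.5 and minus E13.5, and Mir199a-1 from -0.12 to 2.14 (E13.5 minus E12.5). For E15.5 minus E13.5, the values scaled to miRNA-matching reads, by TMM and by DESeq2 were 1.84, 2.12 and 2.21 for Mir143, 2.79, 2.87 and 3.16 for Mir145a, 1.72, 2.01 and 2.10 for Mir199a-1, and 0.52, 0.74 and 0.88 for Mir202. For Mir143, E13.5 minus E12.5, the same 3 gave -0.22, -0.20 and -0.24, and for Mir126a, SGET minus E13.5, the first gave 0.025. Under the replicate block the values were 0.34 for Mir126a (SGET minus E13.5), -0.33 for Mir143 (E13.5 minus E12.5), and 0.86 and 4.91 for Mir145a (E13.5 minus E12.5 and E15.5 minus E13.5). Without E13.5 replicate 2 they were 0.40 for Mir126a (SGET minus E13.5), -1.64 and 0.33 for Mir143, 4.57 for Mir145a (E15.5 minus E13.5) and -0.12 for Mir199a-1 (E13.5 minus E12.5). Without SGET replicate 2, Mir126a was 0.52 (SGET minus E13.5) and Mir145a -8.53 and -8.49 against E12.5 and E13.5, and without SGET replicate 1 Mir126a was -0.21 against E12.5. Without E12.5 replicate 2, Mir143 was -0.10 and Mir145a 8.43, without E13.5 replicate 1 Mir145a was 0.93 (all E13.5 minus E12.5), and without E15.5 replicate 2 it was 0.44 (E15.5 minus E13.5). The cause was not tested.

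The 8 members together made 429, 897, 213 and 1312 reads per 1000000 mapping reads in the 4 groups, 2659, 4724, 10679 and 6326 reads per 1000000 miRNA-matching reads, and, with reads of 1 miRNA gene alone, which leave Mir199a-1 without a value, 309 at E12.5, 107 at E15.5 and 746 in SGET cells. Reads of 18 to 26 nt moved none of these by more than the spread between replicates. With 2 libraries a group an exact permutation test of 1 gene cannot go below p = 0.33.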
